A study of Mus musculus with 12 samples.

Results

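Glycolysis converts glucose to pyruvate and lactate in the cytosol, and the 10 genes described here encode enzymes of this pathway. They were taken from a fixed list of glycolysis genes, namely Hk1, Hk2, Gpi1, Pfkl, Aldoa, Gapdh, Pgk1, Eno1, Pkm and Ldha. Of the 10 genes, 7 were among the 6429 genes of both tables of comparisons deposited by the authors. Hk1, Hk2 and Pfkl, which encode hexokinases and a phosphofructokinase, were in neither table, and Pol II at these 3 genes was not analysed here. All 10 genes had windows in the authors' lists of promoter and gene body windows.

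The occupancy of RNA polymerase II, here Pol II, had been measured by chromatin immunoprecipitation and sequencing (ChIP-seq) in epithelium of the mouse duodenum. The WT crypt and WT villus groups came from wild-type mice injected with an oil vehicle, with 3 Pol II libraries each per the labels, and tissue treated with 3 mM EDTA for 35 minutes. The third group, with 3 libraries, came from villi of mice whose labels give a double knockout (DKO) of HNF4 alpha and gamma, related transcription factors of the intestinal epithelium. These mice received tamoxifen at 50 mg/kg on each of 2 days, and their tissue was treated with EDTA for 25 minutes, so genotype, tamoxifen and EDTA time cannot be told apart. The promoter that drives the recombinase, and whether each library came from 1 animal, are not given in the sources used here. If libraries shared a source, the p-values measure only the spread between these libraries. Crypts and villi were separated by a filter with 70 µm pores, and crypts were not collected from the mutants.

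The pathway starts with the phosphorylation of glucose, splits fructose bisphosphate into a pair of three-carbon sugars, and gains ATP and NADH in its later steps. Many steps have several isozymes encoded by different genes, and some isozymes, such as the L form of pyruvate kinase, are typical of liver, kidney and small intestine. Several glycolysis genes are known as targets of hypoxia-inducible factor (HIF) and of MYC. Crypts hold the dividing cells of the lining, and villi hold mostly absorptive enterocytes.

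Each value below is a log2 fold change of Pol II signal with its standard error after ±, and a gene was called when its DESeq2 adjusted p was under 0.05 over all 6429 genes. The values per library were not analysed here, and neither the depth of each library nor the window counted for the tables is given in the sources used here. Before the members, the targeted genes were read. The authors' deposited table of the genotypes, WT over DKO, gave Hnf4a -0.54 ± 0.14 (adjusted p 0.000484) and Hnf4g -1.45 ± 0.22 (adjusted p 7.81e-10). Pol II signal at both genes was thus higher in the villi labelled DKO, and a deletion of exons need not change Pol II over the rest of a gene, so these values do not check the label. All directions between genotypes rest on the tables' names, and the group is called labelled-DKO villus. Of 10 enterocyte markers 9 were in the authors' deposited tables, and all 9 were called higher in WT villus in both, with medians of 1.45 over crypt and 2.46 over labelled-DKO villus. Of 10 crypt and proliferation markers 3 were tested, and the authors' deposited tables had all 3 lower in WT villus than crypt and 2 lower than in labelled-DKO villus. The goblet and Paneth markers tested numbered 4 of 6, with 2 higher and 2 lower in villus than crypt and 2 lower in WT than labelled-DKO villus. The 2 not tested were the Paneth markers of this list, so Paneth cells were not read. Cd74 was the 1 immune marker of 5 tested, and it was called higher in WT villus in both, at 0.72 ± 0.24 and 1.33 ± 0.24 in the authors' deposited tables. The other 4 were not tested, so the share of immune cells was not read from this 1 gene. None of the 5 mesenchyme, 4 muscle and nerve or 3 erythrocyte markers was among the genes tested. The part of these shifts in the values of the glycolysis genes was not tested. In bulk chromatin, a change in the share of a cell type and a change of Pol II per cell cannot be told apart.

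The start regions of 4 members are shown because they hold short sequences of the kind that HIF is known to bind. Of these, only Ldha also holds CACGTG, a sequence that MYC is known to bind. A further reason is that Gapdh and Ldha on one side and Aldoa on the other were called in opposite directions between the genotypes. Each line gives the 250 bases before a start site on the gene's own strand, from RefSeq and build GRCm38.p6, which is not the build of the deposited windows. Of several starts of a gene, the one with the most matches before it is shown, and the most upstream of equals. A further RefSeq promoter of Aldoa held 0 matches, and a further one of Ldha held GCGTG but no ACGTG. Capitals mark ACGTG or GCGTG, the core of the hypoxia response element, on either strand, so a match on the other strand reads CACGT or CACGC. Matches that overlap form 1 run of capitals.
Gapdh, chr6:125165774-125166023, minus strand: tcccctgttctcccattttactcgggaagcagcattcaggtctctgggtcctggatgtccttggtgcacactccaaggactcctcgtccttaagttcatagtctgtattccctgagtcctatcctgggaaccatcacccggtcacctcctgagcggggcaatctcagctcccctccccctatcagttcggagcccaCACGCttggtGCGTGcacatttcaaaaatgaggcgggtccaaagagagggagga
Aldoa, chr7:126799255-126799504, minus strand: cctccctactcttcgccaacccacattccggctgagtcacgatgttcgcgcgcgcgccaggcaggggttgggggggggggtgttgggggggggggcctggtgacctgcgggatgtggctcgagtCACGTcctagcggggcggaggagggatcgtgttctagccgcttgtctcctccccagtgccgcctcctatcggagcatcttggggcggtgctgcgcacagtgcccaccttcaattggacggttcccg
Ldha, chr7:46845554-46845803, plus strand: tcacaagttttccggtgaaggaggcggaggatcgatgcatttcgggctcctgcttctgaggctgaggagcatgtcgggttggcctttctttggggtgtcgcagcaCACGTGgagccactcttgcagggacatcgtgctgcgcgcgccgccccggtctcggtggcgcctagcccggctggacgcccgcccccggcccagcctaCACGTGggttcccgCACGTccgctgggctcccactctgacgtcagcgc
Pgk1, chrX:106186850-106187099, plus strand: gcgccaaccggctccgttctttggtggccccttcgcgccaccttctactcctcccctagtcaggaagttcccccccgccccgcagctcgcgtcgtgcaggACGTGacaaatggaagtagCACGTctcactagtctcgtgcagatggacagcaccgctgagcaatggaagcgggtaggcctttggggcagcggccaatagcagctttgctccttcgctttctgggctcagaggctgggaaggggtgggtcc

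The Ldha stretch held 5 matches, of which 4 came from a pair of CACGTG E boxes, the sequence bound by MYC and MAX, at 145 and 48 bases before the start. Pgk1 held ACGTG at 150 and 131 bases before the start, Aldoa held 1 match at 126 bases, and Gapdh held GCGTG at 54 and 44 bases. RefSeq listed 17 promoters of 300 bases, from 250 before to 50 after the start, for the 10 members. ACGTG was found on either strand in 8 of the 17 (47.1%), over 7 genes, against 19.6% of all 32851 promoters. GCGTG was found in 8 of 17, over 5 genes, against 32.4% of all promoters. CACGTG, which contains ACGTG on both strands, was found in 1 Ldha promoter alone, against 7.15% of all. The HNF4 motif CAAAGTCCA was in none of the 17 and in 0.475% of all promoters. At so low a share, its absence from 17 promoters cannot tell whether HNF4 binds there. TATAAA was in none of the 17 and in 13.6% of all. The Gpi1 promoter held none of the 5 motifs. The member promoters were richer in G and C, at 51.3% to 69.0% with a median of 63.3%, than all promoters, with a median of 52.7%, and the part of base composition in these shares was not tested. These are matches of letters within this window, and promoters of 1 gene can overlap.

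In the authors' coordinates, which are those of mm9 per the labels, the members had 18 transcripts, each with a promoter window of 402 bp and a gene body window. The shortest gene body windows belonged to Gapdh, on chromosome 6 from 125111370 to 125116835, with 4772 bp for its shorter transcript, and to Aldoa, on chromosome 7 from 133938248 to 133944311, with 4795 bp. The longest belonged to Hk1, on chromosome 10 from 61731103 to 61843006, with 111904 bp. The windows of Gpi1 lay on chromosome 7 from 34985846 to 35015705, of Ldha on chromosome 7 from 54101074 to 54110497, and of Pkm on chromosome 9 from 59504075 to 59526682. Those of Eno1 lay on chromosome 4 from 149611206 to 149622482 and those of Pgk1 on chromosome X from 103382339 to 103398538. None of the 7 members in the tables overlapped the windows of another gene with a matched symbol, and Hk1 overlapped the antisense gene Hk1os. On the minus strand, which carries Hk1, Hk2, Gpi1, Pfkl, Aldoa and Gapdh, the gene body window contained the promoter window. This held for 21190 of 21190 minus strand transcripts in the deposited files and for 0 of 19858 on the plus strand, which carries Pgk1, Eno1, Pkm and Ldha.

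Between villus and crypt of wild-type mice, 4 of the 7 glycolysis genes carried more Pol II in villus, namely Gapdh, Eno1, Pkm and Gpi1, with rises of 1.29-fold to 2.17-fold. No member was called higher in crypt at the adjusted threshold in the authors' deposited DESeq2 table, and at an unadjusted p under 0.05 none was either. Aldoa, Pgk1 and Ldha did not pass the test. The share of all genes called in this comparison was 37.4%, with 18.6% higher in WT villus and 18.8% higher in crypt. The median of the 7 log2 fold changes was 0.37 in the authors' deposited table, against -0.04 over all 6429 genes.

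Gapdh encodes the enzyme that makes the NADH of the pathway, and it is often used as a reference gene. Its group means, rebuilt from the authors' deposited tables on the assumption of equal groups, were 263 size-factor-normalised counts in WT crypt and 572 in WT villus. The authors' deposited table gave a log2 fold change of 1.12 ± 0.24 (adjusted p 2.27e-05, 95% interval 0.65 to 1.59). This placed Gapdh above 97.3% of all genes in that comparison.

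Eno1 encodes enolase 1, which forms phosphoenolpyruvate. Its rebuilt means were 127 in WT crypt and 194 in WT villus, and the authors' deposited table gave 0.60 ± 0.10 (adjusted p 1.95e-08). Pkm encodes the M forms of pyruvate kinase, which turn phosphoenolpyruvate into pyruvate. Its rebuilt means were 257 and 384, with 0.58 ± 0.14 (adjusted p 0.000283) in the authors' deposited table. The 95% intervals of Eno1 and Pkm overlapped almost in full, from 0.41 to 0.80 and from 0.30 to 0.85. Gpi1 encodes glucose-6-phosphate isomerase, the enzyme after hexokinase. It showed the smallest called change among the members in the authors' deposited table, 0.37 ± 0.10 (adjusted p 0.000611), with rebuilt means of 257 in crypt and 333 in villus.

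The other 3 members did not pass the test of villus against crypt. For Ldha, the lactate dehydrogenase subunit A gene, the authors' deposited table gave 0.21 ± 0.20 (adjusted p 0.442), with rebuilt means of 199 in crypt and 230 in villus. Aldoa, which encodes the ubiquitous aldolase A, had -0.34 ± 0.24 (adjusted p 0.261) in the authors' deposited table, with rebuilt means of 82.4 and 65.0. Pgk1, which encodes the first ATP-forming enzyme of the pathway, had -0.22 ± 0.38 (adjusted p 0.693) in the authors' deposited table. Its 95% interval ran from -0.97 to 0.53, so a fall of the size of the rise called at Eno1 lay within it, and a rise of that size lay just outside.

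**Figure D1:**
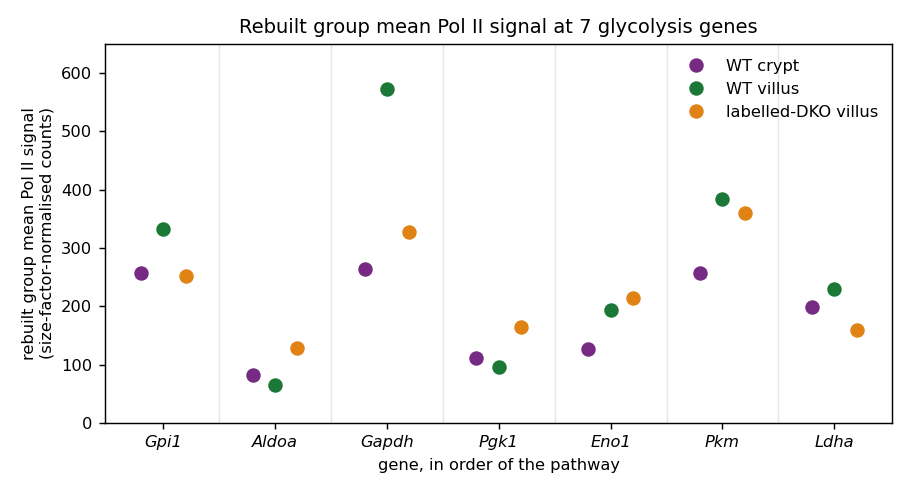
Rebuilt group mean Pol II signal in size-factor-normalised counts (y axis, linear from 0) at the 7 glycolysis genes in the tables (x axis), for WT crypt, WT villus and labelled-DKO villus, 1 point a group. The points are means without error bars because no value per library was used. By these means Gapdh, Gpi1, Pkm and Ldha are highest in WT villus, and Aldoa, Pgk1 and Eno1 are highest in labelled-DKO villus. The heights of the points are not a test.

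Between the genotypes the members split in direction. Gapdh, Gpi1 and Ldha carried less Pol II in labelled-DKO villus than in WT villus, and Aldoa carried 1.96-fold more. Eno1, Pkm and Pgk1 did not pass the test. In all, 4 of 7 members were called in the authors' deposited DESeq2 table, against 51.9% of all genes, so the share of members called was near that of the background. By direction, 3 were higher in WT villus and 1 was higher in labelled-DKO villus, against 22.4% and 29.5% of all genes. The median of the 7 members in this comparison was 0.09 on the log2 scale, and that of all genes was -0.08. After centring on the latter, 1710 genes instead of 1443 were higher in WT villus and 1422 instead of 1895 in labelled-DKO villus, and the calls of the members kept their numbers in each direction.

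Aldoa had rebuilt means of 65.0 in WT villus and 128 in labelled-DKO villus, and for WT over labelled-DKO the authors' deposited table gave -0.97 ± 0.23 (adjusted p 0.000114, 95% interval -1.43 to -0.52). Of all genes, 2.38% had a lower value in that comparison. Pgk1 had the same sign, with rebuilt means of 95.5 and 164 and a log2 fold change of -0.78 ± 0.38 in the authors' deposited table, but its adjusted p was 0.0747.

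Gapdh was lower in labelled-DKO villus, with a rebuilt mean of 327 against 572 in WT villus. The authors' deposited table gave 0.81 ± 0.24 for WT over labelled-DKO villus (adjusted p 0.00188). For Gpi1 the authors' deposited table gave 0.40 ± 0.10 (adjusted p 0.000118), with rebuilt means of 333 and 252. Ldha, which links pyruvate to lactate, had 0.53 ± 0.20 (adjusted p 0.0159) in the authors' deposited table, with rebuilt means of 230 and 159. It did not pass at an adjusted p under 0.01.

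Eno1 and Pkm, which act next to each other near the end of the pathway, were not called between the genotypes. Eno1 had -0.15 ± 0.09 (adjusted p 0.178) in the authors' deposited table, with rebuilt means of 194 in WT villus and 214 in labelled-DKO villus. Pkm had 0.09 ± 0.14 (adjusted p 0.609) in the authors' deposited table, with rebuilt means of 384 and 361. The 95% intervals of WT over labelled-DKO villus ran from -0.33 to 0.04 for Eno1 and from -0.18 to 0.37 for Pkm, so losses in labelled-DKO villus of the size seen at Gapdh lay outside both.

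**Figure D2:**
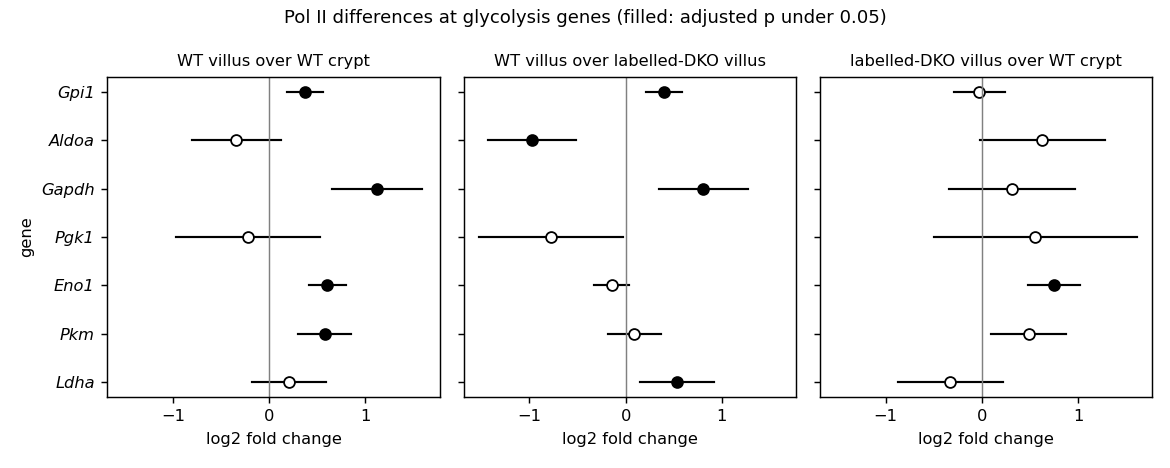
Log2 fold changes of Pol II signal (x axis) at the 7 glycolysis genes (y axis) in 3 comparisons. Points are estimates, lines are 95% intervals, and filled points have an adjusted p under 0.05. Aldoa is the single member called to the left of 0 for WT over labelled-DKO villus, and Eno1 is the single member called for labelled-DKO villus over crypt.

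Labelled-DKO villus was then set against WT crypt. This comparison was formed as the difference of both deposited log2 fold changes, so WT villus drops out, and it was given the largest standard error it can have. Eno1 was called higher in labelled-DKO villus than in crypt, at 0.75 ± 0.14 with a Benjamini-Hochberg adjusted p of 1.75e-06 from this Wald test, a 1.68-fold difference. It was the 1 member called, against 13.6% of all genes, with 6.41% higher in labelled-DKO villus and 7.19% higher in crypt. For Pkm the value was 0.49 ± 0.20 (adjusted p 0.0847), and with a standard error rebuilt from both tables its adjusted p was 0.00340. Aldoa had 0.63 ± 0.33 (adjusted p 0.223), with an adjusted p of 0.0255 under the rebuilt standard error. The other members had values of 0.56 ± 0.54 for Pgk1, 0.31 ± 0.34 for Gapdh, -0.03 ± 0.14 for Gpi1 and -0.33 ± 0.28 for Ldha, and none of these 4 was called with either standard error.

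The calls among the 3 groups therefore differed by member. Whether the members differ from one another was not tested, and their standard errors were unlike. Gpi1 was highest in WT villus, and its rebuilt means of 257 in crypt and 252 in labelled-DKO villus were not told apart (95% interval of the log2 difference -0.29 to 0.24). Gapdh was also highest in WT villus, with crypt and labelled-DKO villus not told apart. Eno1 was lowest in crypt, and its villus groups were not told apart. Pkm was higher in WT villus than in crypt, and its labelled-DKO villus mean lay between them. Labelled-DKO villus was called against neither with the largest standard error, but its 95% interval over crypt, from 0.10 to 0.88, did not hold 0. With the rebuilt standard error Pkm was called higher in labelled-DKO villus than in crypt. Ldha was higher in WT villus than in the labelled-DKO group, and Aldoa was the reverse. At both genes crypt was told apart from neither group with the largest standard error. With the rebuilt standard error Aldoa was called higher in labelled-DKO villus than in crypt. Pgk1 was called in none of the comparisons. Its 95% interval for WT over labelled-DKO villus, from -1.53 to -0.03, did not hold 0.

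The precision differed widely among the members. The standard error of villus over crypt in the authors' deposited table was 0.38 at Pgk1, above 99.4% of all genes, and 0.24 at both Gapdh and Aldoa, but 0.10 at Eno1 and Gpi1. Among the 500 genes nearest in mean signal, the standard error lay at the 99.6 percentile for Pgk1, 96.0 for Gapdh, 93.8 for Aldoa and 88.4 for Ldha. It lay at the 69.8 percentile for Pkm, 33.0 for Gpi1 and below that for Eno1. The mean signal itself was not low at Gapdh, at 387 in the authors' deposited table against a median of 144 over all genes. RefSeq lists pseudogenes named for 4 of the 7 members, 3 for Gapdh, 3 for Ldha, 2 for Aldoa and 2 for Pgk1, and by the same search 0 for Eno1, Gpi1 and Pkm. The search read symbols only and misses copies with other names, the window counts kept mapping qualities from 30 upward per the file headers, and the part of copies in these errors was not tested. Values at these 4 genes, and at any other member with copies that the search missed, are uncertain to the extent that reads could be shared with copies.

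**Figure D3:**
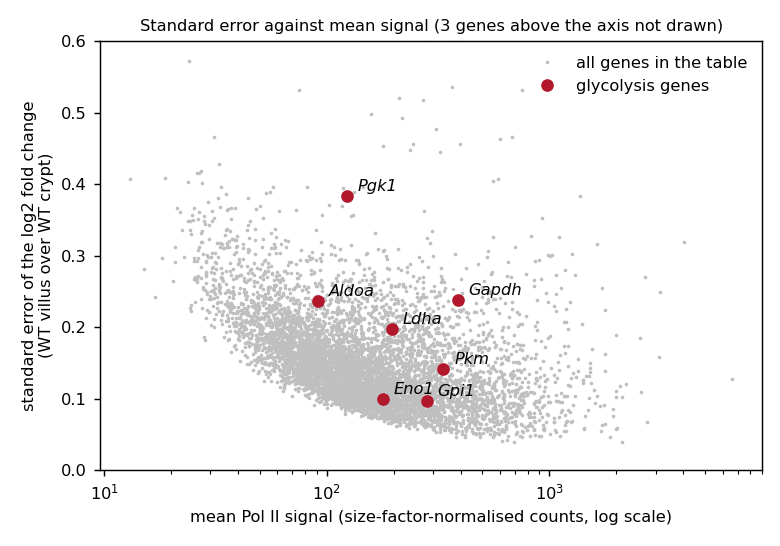
Standard error of the log2 fold change of WT villus over WT crypt (y axis) against mean Pol II signal in size-factor-normalised counts (x axis, log scale) in the authors' deposited table, for all genes (grey, except 3 above the axis) and the 7 glycolysis genes (red). Pgk1, at 0.38, stands at the top of the genes of its signal, while Eno1 and Gpi1, at 0.10, lie among the lower ones.

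Isozymes and the remaining steps were read from a second list, of which 8 of the 19 genes considered were in the tables. The authors' deposited table had 4 of the 8 called higher in WT villus than crypt and 0 lower (also 0 lower at an unadjusted p under 0.05). Between the genotypes, the authors' deposited DESeq2 table had 5 called higher in WT villus and 0 lower, also at an unadjusted p under 0.05. The medians of the 8 were 0.21 and 0.39, against -0.04 and -0.08 over all genes. Of all genes 37.4% were called in the first comparison and 51.9% in the second, and the counts of the lists that follow are to be read against these shares.

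Pyruvate kinase is encoded by a pair of genes. Pklr, which encodes the L and R forms, had 0.82 ± 0.15 for villus over crypt (adjusted p 2.83e-07) and 1.10 ± 0.15 for WT over labelled-DKO villus (adjusted p 6.19e-13) in the authors' deposited tables. Pkm rose with it from crypt to villus, but between the genotypes the upper bound of its 95% interval was 0.37, below the lower bound of 0.82 for Pklr. A test of the difference between the genes was not run. The windows of Pklr overlapped no other gene with a matched symbol.

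At the entry of the pathway Hkdc1, a hexokinase family gene, had rebuilt means of 395 in crypt, 546 in WT villus and 260 in labelled-DKO villus. It had 0.47 ± 0.15 (adjusted p 0.00656) and 1.07 ± 0.15 (adjusted p 9.36e-12) in the authors' deposited tables, and it was called lower in labelled-DKO villus than in crypt, at -0.60 ± 0.21 (adjusted p 0.0357). Pfkp, a phosphofructokinase gene, had small called rises in WT villus in the authors' deposited tables, of 0.24 ± 0.08 (adjusted p 0.00504) over crypt and 0.21 ± 0.07 (adjusted p 0.0138) over labelled-DKO villus. Tpi1, the triose phosphate isomerase gene, had 0.96 ± 0.17 and 0.96 ± 0.16 in the authors' deposited tables, and Gapdh encodes the enzyme after it. The windows of Pfkp and Tpi1 overlapped those of another gene, and the window counting recorded no use of strand, so these values are less certain. The fifth called gene was Bpgm, the bisphosphoglycerate mutase gene, which falls outside the rule for named genes and was named after its values were seen. It was higher in WT than labelled-DKO villus, at 0.57 ± 0.11 (adjusted p 6.59e-07), and had 0.14 ± 0.11 (adjusted p 0.299) over crypt in the authors' deposited tables. It was also called lower in labelled-DKO villus than in crypt, at -0.42 ± 0.15 (adjusted p 0.0388). The remaining 3 genes, of which Pgam1 and Pgam2 are likewise outside the rule, passed the threshold in neither of the authors' deposited tables, with values between genotypes of 0.06 ± 0.11 for Pgam1, -0.43 ± 0.23 for Pgam2 and -0.29 ± 0.17 for the enolase gene Eno3.

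**Figure D4:**
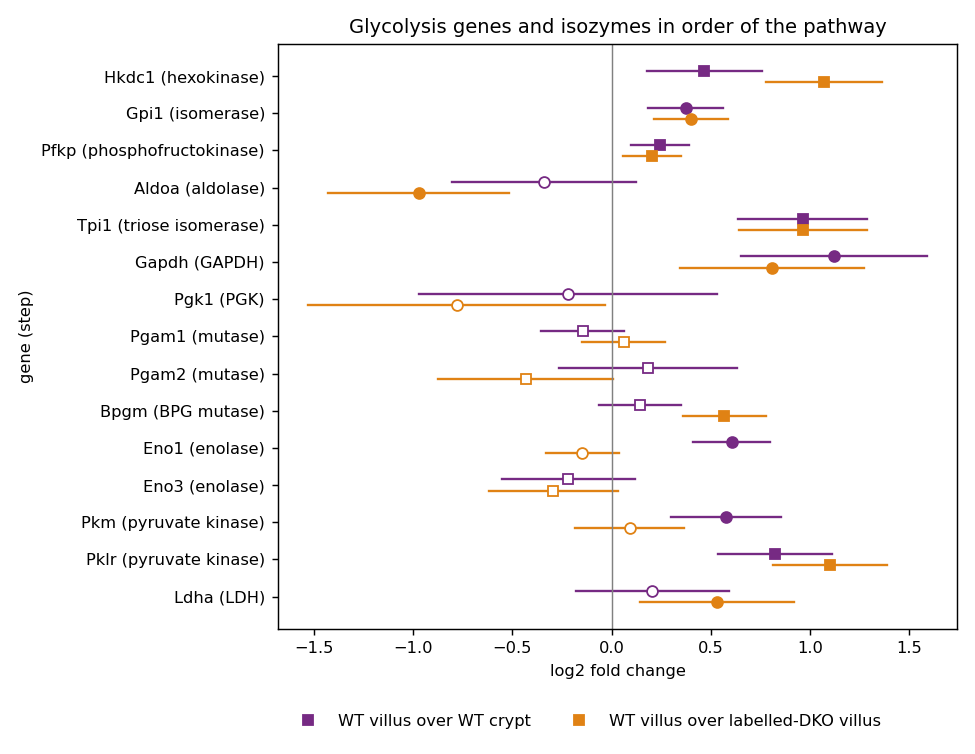
Log2 fold changes (x axis) with 95% intervals at glycolysis genes (circles) and isozymes or other steps (squares), ordered from the entry of glucose to lactate (y axis). Purple is WT villus over WT crypt, orange is WT villus over labelled-DKO villus, and filled symbols have an adjusted p under 0.05. Aldoa lies to the left of 0 between the genotypes, and Pklr lies to the right of Pkm.

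A further list held genes that set the flux or carry glucose and lactate. Of 12 such genes 7 were in the tables, and the authors' deposited tables had 5 called higher and 1 lower in WT villus in each comparison. The largest rises were at Gpd1, a glycerol-3-phosphate dehydrogenase gene, with 1.16 ± 0.14 over crypt and 1.31 ± 0.14 over labelled-DKO villus in the authors' deposited tables. Slc16a3, which encodes the lactate exporter MCT4, had 0.70 ± 0.11 and 0.90 ± 0.11 in the authors' deposited tables. Pfkfb4, whose product makes and breaks the phosphofructokinase activator fructose 2,6-bisphosphate, had 0.66 ± 0.10 and 1.03 ± 0.10 in the authors' deposited tables. The related Pfkfb2 was the 1 gene called lower, at -0.20 ± 0.07 and -0.34 ± 0.07 in the authors' deposited tables. The windows of Gpd1 and Pfkfb2, and of Tkt, Ugp2 and Mlx below, overlapped another gene.

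Entry to mitochondria is the other route of pyruvate beside lactate. Of 10 such genes tested out of 14, the authors' deposited table had 1 higher and 3 lower in villus than crypt, and 2 higher and 4 lower in WT than labelled-DKO villus. These shares, 4 of 10 and 6 of 10, lie near the 37.4% and 51.9% of all genes called. Pdk4, a kinase that inhibits pyruvate dehydrogenase, had the largest change, at -1.75 ± 0.25 for WT over labelled-DKO (adjusted p 5.23e-11) in the authors' deposited table, and 0.25 ± 0.26 over crypt. Its relative Pdk2 moved the other way, at 0.98 ± 0.13 (adjusted p 1.71e-12) in the authors' deposited table of the genotypes. The other higher gene was Pdp2, a pyruvate dehydrogenase phosphatase gene, at 0.28 ± 0.12 (adjusted p 0.0419) in the authors' deposited table. The lower genes also held Dld, a pyruvate dehydrogenase complex subunit gene, at -0.40 ± 0.12 in the authors' deposited table of the genotypes. Mpc2, a mitochondrial pyruvate carrier gene, was lower in both of the authors' deposited tables, at -0.39 ± 0.11 against crypt and -0.27 ± 0.11 against labelled-DKO villus.

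Of the pentose phosphate genes, which branch from glucose 6-phosphate, 5 of 7 were tested. The authors' deposited table had 0 higher and 1 lower (Rpia) in villus than crypt, with 0 higher also at an unadjusted p under 0.05 in DESeq2. Between the genotypes, the authors' deposited table had Pgd higher in WT villus, at 0.61 ± 0.18, and Taldo1, Tkt and Rpia lower, at -0.53 ± 0.14, -0.51 ± 0.15 and -0.36 ± 0.09. Of 9 glycogen genes 3 were tested, and the authors' deposited tables had Pgm2 higher and Ugp2 lower in WT villus in both comparisons, at 0.54 ± 0.11 and -0.37 ± 0.11 against crypt.

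The HIF list held regulators and known targets of the hypoxia response, of which 11 of 18 entered the tables. The authors' deposited table had 2 called higher and 0 lower in villus than crypt (0 lower also at an unadjusted p under 0.05), and 2 higher and 4 lower in WT than labelled-DKO villus. Between the genotypes 6 of 11 called is near the 51.9% of all genes, and against crypt 2 of 11 is below the 37.4% of all genes. Vegfa, which encodes an angiogenic growth factor, was the higher gene with the largest change over crypt, at 1.26 ± 0.11 in the authors' deposited table. It was also higher in WT than labelled-DKO villus, at 0.63 ± 0.11 (adjusted p 2.52e-08), in the authors' deposited table. Between the genotypes the authors' deposited table gave -3.05 ± 0.30 at Ndrg1 (adjusted p 8.08e-23), -1.29 ± 0.33 at Ddit4 and -0.57 ± 0.16 at Hif1a, the gene of HIF-1 alpha. Egln3, a HIF hydroxylase gene, was called higher in WT villus at 0.98 ± 0.13 in the authors' deposited table.

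In the list of MYC, MAX and related genes 7 of 12 were tested. The authors' deposited tables had 4 higher and 1 lower in villus than crypt, and 5 higher and 1 lower in WT than labelled-DKO villus. Myc itself was lower in villus than crypt, at -1.06 ± 0.18 (adjusted p 2.93e-08), and lower in WT than labelled-DKO villus, at -0.67 ± 0.18 (adjusted p 0.000536), in the authors' deposited tables. The MYC antagonist gene Mxd1 rose most in villus over crypt, at 2.03 ± 0.26, and was 0.92 ± 0.25 over labelled-DKO villus in the authors' deposited tables. Mxi1, with 0.72 ± 0.10 and 1.12 ± 0.10, and Mlx, with 0.64 ± 0.12 and 1.06 ± 0.12, were called higher in WT villus in the authors' deposited tables.

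**Figure D5:**
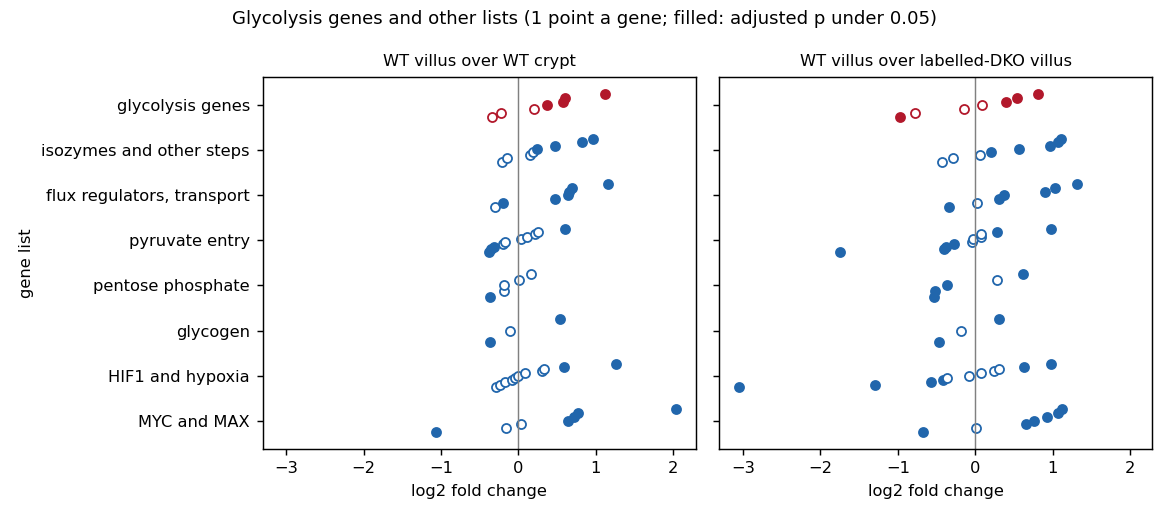
Log2 fold changes (x axis) of the 7 glycolysis genes (red) and of 7 other gene lists (blue), 1 point a gene, for WT villus over WT crypt and for WT villus over labelled-DKO villus. Filled points have an adjusted p under 0.05. The called glycolysis genes all lie to the right of 0 over crypt and on both sides between the genotypes, and the lowest blue point is Ndrg1 at -3.05.

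Aldoa had the largest absolute Wald score of the members between the genotypes, -4.19 against 4.18 for Gpi1 in the authors' deposited table. The 3 genes whose pair of log2 fold changes lay nearest to its own were sought among 3160 genes outside the lists whose mean signal was no lower than the median. They were Crk, Pik3r1 and Cers6, at distances of 0.022, 0.022 and 0.035 on the log2 scale over both comparisons. Their values in the authors' deposited tables ran from -0.38 to -0.32 for villus over crypt and from -0.98 to -0.96 for WT over labelled-DKO villus. Likeness over 2 comparisons that share WT villus is a description of these tables.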

How the data were processed

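Pol II was measured by ChIP-seq in 9 libraries of 3 groups, and 3 input libraries were not used here. Per the submitters' processing notes, reads were aligned with Bowtie2 2.2.6 to mm9, and DESeq2 1.36.0 was used. The authors deposited a table for WT villus against WT crypt and one for WT villus against DKO villus, each giving for 6429 genes the mean signal (counts divided by size factors, averaged over libraries), the log2 fold change and its standard error, the Wald score, and raw and adjusted p-values. The mean signal was the same in both. The deposited scores equalled the log2 fold change over its standard error to within 1.78e-07, and the deposited adjusted p-values equalled a Benjamini-Hochberg adjustment to within 3.76e-07. Whether the fold changes were shrunken is not given in the sources used here, and the rebuilt values take them as unshrunken. Standard errors include counting noise, which weighs most at a low signal.

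Per the file headers, featureCounts 2.0.3 counted read pairs in the deposited promoter and gene body windows, with pairs assigned to every window they overlapped. The 18 columns of library values have no names, could be matched to no sample, and were not used. Window positions and lengths were used, and 96.8% of promoter windows were matched to a symbol through RefSeq (GRCm38.p6, names only).

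Group means were rebuilt from the mean signal and both fold changes, for 3 libraries per group. Labelled-DKO villus against crypt used the difference of the fold changes, with the root of the summed squared standard errors, and Benjamini-Hochberg adjustment. Intervals of 95% are an estimate plus or minus a normal quantile times its standard error. In simulated counts for 6429 genes, with 200 changed by 1 on the log2 scale in this comparison, it recovered 84.5% and called 0 unchanged genes, and the rebuilt standard error recovered 99.5% and called 11. The simulated standard errors used the known spread of the counts, and the largest member change in this comparison was 0.75. These rates therefore do not give the share of member changes that would be found. Python 3.11.15, numpy 2.4.6, pandas 2.3.3 and scipy 1.17.1 were used.

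The members and gene lists were chosen with earlier results of these data known. Every member in the tables is named. In each other list the genes named are those called in either deposited table with the largest change, at most 3 a direction, and isozymes of a member's step. Listed genes outside this rule enter the counts alone, except 3 named after their values were seen, and 1 listed gene is left out of every count and is not reported here.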

Additional observations from a re-analysis of the deposited data

How the results depend on the processing

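The counts of called genes moved mainly with the size of change required. With an absolute log2 fold change above 1, which by construction can call fewer genes, the members called numbered 1 (Gapdh) for WT villus against crypt, 0 between the genotypes and 0 for labelled-DKO villus against crypt, in place of 4, 4 and 1, and the other pathway genes numbered 4, 9 and 3 in place of 24, 35 and 11. Tested against changes up to 0.5 by a Wald test, the members numbered 0 in all 3 comparisons (1, 1 and 0 at an unadjusted p under 0.05), and the other pathway genes numbered 5, 13 and 2. An adjusted p under 0.01 left 3 of the other pathway genes for labelled-DKO villus against crypt. For that comparison the rebuilt standard error gave 3 members (Eno1, Pkm and Aldoa) and 22 other pathway genes. Over all genes the same settings gave 285, 559 and 223 with the limit of 1, 252, 637 and 90 against 0.5, 558 for labelled-DKO villus against crypt at 0.01, and 1926 with the rebuilt standard error, in place of 2403, 3338 and 874. Centring, a mean signal of at least 100, which leaves out Aldoa, and leaving out overlapping genes left each count of members and of other pathway genes within 1.5 times. Of the recomputed values of single members, 110 kept both direction and call, 18 no longer passed, 2 newly passed and none changed direction. Only centring alters a fold change, so a direction could change under that setting alone. An adjusted p under 0.01, the limit of 1 and the test against 0.5 can only remove calls. These counts are therefore in part fixed by the settings. No paired analysis was possible because no values per library could be used: the count columns carry no names. Leaving out each replicate and a refit in edgeR were not run for the same reason.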
